A study of Homo sapiens with 12 samples.

Results

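The genes described here control the breakdown of the pericellular matrix by secreted and membrane-bound proteases. They were 9 genes chosen by name: the plasminogen activators PLAU and PLAT, the urokinase receptor PLAUR, the activator inhibitor SERPINE2, the metalloproteases MMP1, MMP2 and MMP14, and the metalloprotease inhibitors TIMP1 and TIMP2. All 9 had a row among the 20771 genes of the count table, and 8 passed the filter on low counts that was applied before testing. MMP1 did not pass it and is given by its counts alone.

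The libraries came from the conditional knockouts EW8-RRM1-KO and TC71-RRM1-KO, made from the Ewing sarcoma lines EW8 and TC71. Each line was a single-cell clone in which CRISPR/Cas9 had disrupted endogenous RRM1, the large subunit of ribonucleotide reductase, and which carried a doxycycline-inducible, codon-optimized RRM1 transgene. All groups shared both modifications and were grown in DMEM with 10% FBS. Libraries labelled 0 h were from cells in the presence of doxycycline, and those labelled 48 h from cells in its absence for 48 h, with 3 libraries for each line and time. The absence of the drug and the loss of RRM1 came together in these groups, so they cannot be told apart here. No label says whether the libraries of a group came from separate cultures, so p-values measure the spread between these libraries, and line and clone cannot be told apart.

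Plasminogen activators cut the circulating zymogen plasminogen into plasmin, a serine protease that degrades fibrin and matrix proteins and can activate some metalloproteases. Urokinase acts largely at the cell surface, held there by its receptor, and serpins such as protease nexin-1 trap the activators in inactive complexes. Metalloproteases are made as inactive precursors. MMP14 at the cell membrane activates the MMP2 precursor with TIMP2 as an adaptor, whereas an excess of TIMP2 blocks the same enzyme.

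Total counts were between 18468485 and 35698991 per library. RRM1 counts did not fall at 48 h: they were 214, 166 and 317 (0 h) against 1201, 1449 and 1514 (48 h) in EW8, and 422, 316 and 418 (0 h) against 674, 707 and 778 (48 h) in TC71. This gene therefore does not check the labels by a loss of RNA, and times below are those of the labels. Whether reads of the codon-optimized transgene are among these counts is not given in the sources used here. The study followed RRM1 as protein by immunoblot and reported its loss after doxycycline was removed. All 9 Ewing sarcoma markers examined were in the table, with summed levels of 2139 to 2202 CPM (counts scaled to library size, with TMM factors) at 0 h against 2014 to 2030 at 48 h in EW8. In TC71 the sums were 2277 to 2323 at 0 h against 2214 to 2250 at 48 h, so the sum was lower at 48 h without overlap in both lines. The summed level of 6 fibroblast markers moved with the condition, from 178 to 181 CPM up to 247 to 250 in EW8 and from 165 to 166 up to 230 to 243 in TC71, and each marker reached 1 CPM in some library. Of 6 leukocyte markers, 3 were in the table and summed to 0.458 to 0.745 CPM in EW8 at 0 h and 4.01 to 4.73 at 48 h, with PTPRC and CD14 under 1 CPM in every library. In TC71 the same sum was 0.372 to 0.894 CPM at 0 h and 0.858 to 1.15 at 48 h. Epithelial markers (2 of 5 in the table) summed to at most 2.16 CPM and endothelial markers (1 of 5) to at most 0.207. The part of these markers in the results below was not tested. In bulk RNA, a change in every cell and a change in some of the cells cannot be told apart.

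In EW8, the activators PLAU and PLAT and their inhibitor SERPINE2 were called higher at 48 h. Calls required both a fold over 2 and an adjusted p under 0.05 in edgeR's quasi-likelihood test. In TC71, PLAU was the member called. These were 3 and 1 of the 8 genes tested, against 13.9% and 3.26% of the 16515 genes tested that were called higher in EW8 and TC71. PLAU, with at most 7 counts in any library at 0 h, passed the filter on low counts through the libraries at 48 h, where it was high, so these counts are a description and support nothing about the members. Under a stricter filter that kept genes reaching 10 counts in each library, PLAU was no longer tested, which removed the TC71 call, and 2 of 6 members were called higher in EW8, against 9.11% of 13210 genes. The 8 genes had a median log2 fold change of 0.58 (EW8) and 0.39 (TC71), beside 0.03 and 0.00 over all genes tested. By adjusted p alone, 6 of the 8 were higher in EW8 and 5 in TC71, against 37% and 22.9% of all genes tested. Groups at 0 h and 48 h did not overlap, with 48 h higher, for 5 of the 8 in each line (37.9% of all genes in EW8, 25.9% in TC71), and with 48 h lower for 1 in each (33.2% and 23.7%). No member was called lower (0 in EW8 and 0 in TC71 by edgeR, and 0 and 0 by DESeq2, against 3.35% and 0.854% of all genes). By adjusted p alone, 0 members were lower in EW8 and 1 (TIMP2) in TC71, against 31.6% and 19.2% of all genes tested. At an unadjusted p below 0.05 (edgeR), 0 members were lower in EW8 and 2 in TC71, PLAUR and TIMP2. The share of all genes at that threshold is not given, so this count is a description.

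**Figure D1:**
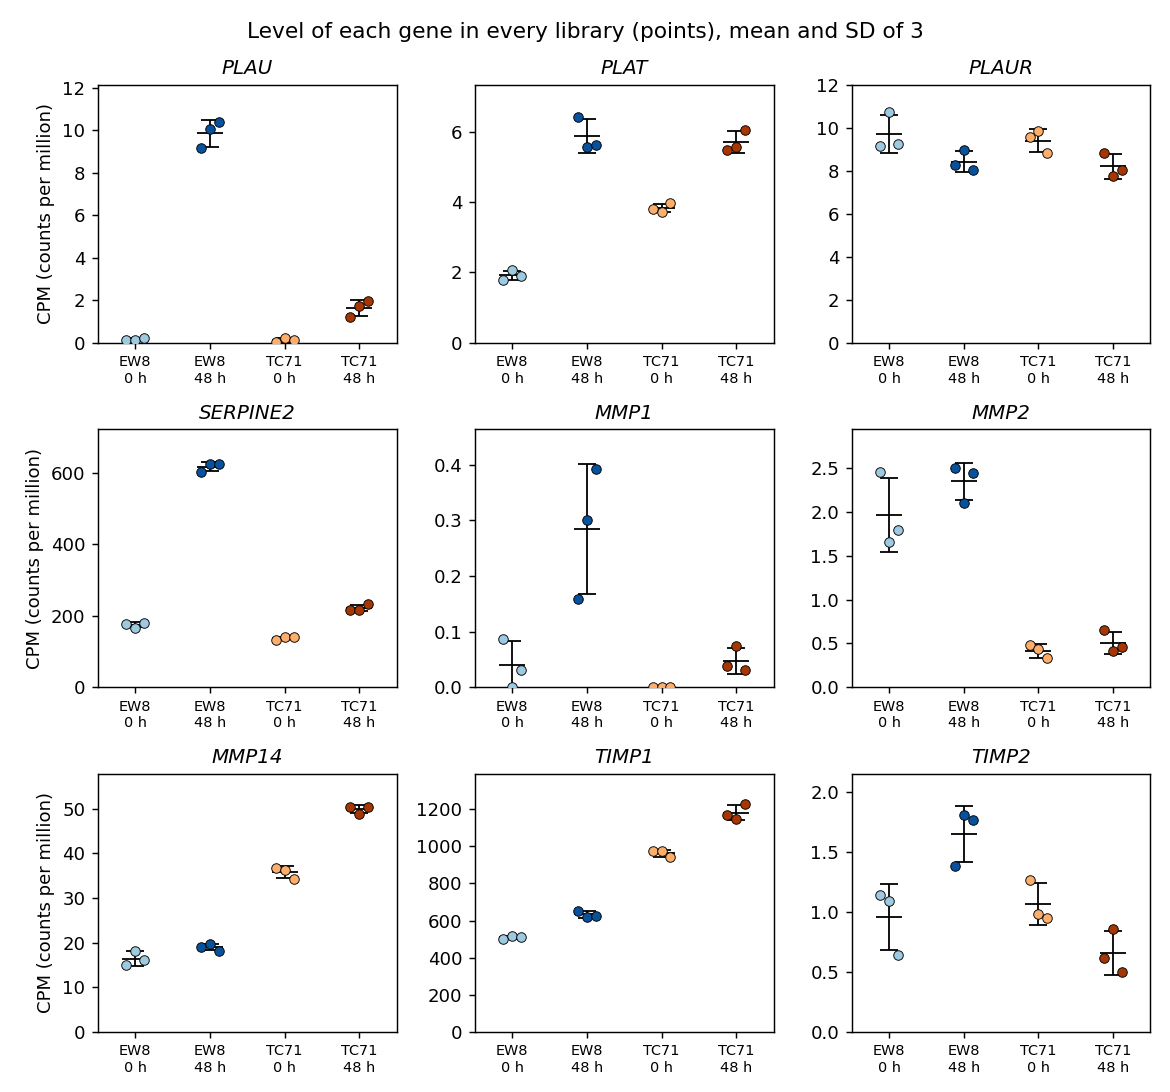
Level of each gene in CPM (vertical axes, starting at 0) in the 4 groups of 3 libraries; points are libraries, and bars are the mean and SD. PLAU lay at 0.115 to 0.214 CPM in EW8 at 0 h and 9.15 to 10.4 at 48 h, and TIMP2 was higher at 48 h in EW8 and lower at 48 h in TC71.

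PLAU encodes urokinase-type plasminogen activator. It lies on chromosome 10 (hg38, 73909177 to 73917496, + strand; GENCODE release 44), with 11 exons in its canonical transcript. Its counts in EW8 were 3, 2 and 7 (0 h) against 172, 201 and 212 (48 h). Those in TC71 were 1, 5 and 3 (0 h) against 32, 46 and 63 (48 h). The groups did not overlap in either line, and no library at 0 h held more than 7 counts. Levels rose from 0.153 ± 0.0529 to 9.87 ± 0.642 CPM (SD, n = 3) in EW8 and from 0.136 ± 0.104 to 1.63 ± 0.371 CPM in TC71.

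PLAU had a fitted log2 fold change of 5.87 (SE 0.25, adjusted p = 6.70e-21 by edgeR's quasi-likelihood test) in EW8 and 3.65 (SE 0.37, adjusted p = 4.75e-10) in TC71. As these sizes rest on few counts at 0 h, the summed counts were also compared. The 12 counts at 0 h against 585 at 48 h in EW8 gave a 60.2-fold difference after scaling to library size (exact 95% interval 34.2 to 117), and the 9 against 141 in TC71 gave 13.1-fold (6.71 to 29.3). These intervals cover counting error only. Leaving out TC71 0 h replicate 2, which held 5 of the 9 counts, moved the TC71 change to 4.30 (adjusted p = 7.29e-10), and it ranged from 3.16 to 4.30 over the libraries left out. The rise was larger in EW8 than in TC71 by 2.21 on the log2 scale (SE 0.72, adjusted p = 0.0117, edgeR). That difference rested on few molecules: without TC71 0 h replicate 2 it was 1.56 with an adjusted p of 0.189. At 0 h PLAU did not differ detectably between the lines (log2 difference 0.37, SE 0.66, adjusted p = 0.631).

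Exons of PLAU share 915 bases with C10orf55, a lncRNA on the opposite strand that has no row in the table used here. The library kit marks strand, but the strand setting of the counting is not given in the sources used here, so reads of this pair could not be separated. Upstream sequence was searched on both strands for TGANTCA, the letters that AP-1 transcription factors are known to bind. The search covered 5 of the 9 members, and PLAT, MMP1, MMP2 and TIMP2 were not searched. In the 2500 bases of hg38 before the canonical start, PLAU held 2 matches, PLAUR, SERPINE2 and TIMP1 1 each, and MMP14 0. Windows of this length held at least 1 match in 47.8% of 20045 protein-coding genes, so a match is a description of the sequence and not a site or a cause. The 3 matches outside annotated exons are shown to let the settings be compared; capitals mark the match, with 30 bases on each side, 5′ to 3′ on the strand of the gene.
PLAU: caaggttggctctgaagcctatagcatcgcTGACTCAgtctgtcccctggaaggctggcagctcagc
SERPINE2: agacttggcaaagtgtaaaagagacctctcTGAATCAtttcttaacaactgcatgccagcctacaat
TIMP1: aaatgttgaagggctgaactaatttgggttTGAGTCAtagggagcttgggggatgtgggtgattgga

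The PLAU sequence is chr10:73909404-73909470 (+ strand), with the match 1698 to 1692 bases before the canonical start and in an intron of a longer PLAU transcript. The SERPINE2 sequence is chr2:224041167-224041233 (− strand), 1917 to 1911 bases before the start and outside any annotated gene. The TIMP1 sequence is chrX:47582051-47582117 (+ strand), 355 to 349 bases before the start and inside SYN1, the gene on the opposite strand that spans TIMP1. The other PLAU match (TGAATCA, 1890 to 1884 bases before the start) and the PLAUR match (TGAGTCA, 186 to 180 bases before it) lie in exons of other transcripts of these genes and are not printed.

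RefSeq (GRCh38.p14) gave 7 promoter windows for 5 of the 9 genes: 2 each for PLAU and SERPINE2, and 1 each for PLAUR, MMP14 and TIMP1. Both SERPINE2 starts (7808 and 646 bases away) and 1 PLAU start (522 bases away) differ from the canonical start used above. In the 250 bases before each RefSeq start, TGANTCA was found in the PLAUR window alone, against 6.57% of 35116 windows. TGACGTCA, the letters bound by CREB and ATF proteins, was found in none of the 7 (1.65% of windows). GGAAGGAA, the short repeat that the EWSR1-FLI1 fusion of Ewing sarcoma binds in longer runs, was found 140 to 133 bases before the start of MMP14, on the other strand, and 248 to 241 bases before that of TIMP1 (3.06% of windows). TIMP1 also held TGAGTAA, 101 to 95 bases before its start (2.21% of windows), a search that was added after its sequence had been seen.

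PLAT encodes tissue-type plasminogen activator, the activator best known from fibrin clots, on chromosome 8 (42174718 to 42207709, − strand, 14 exons). EW8 libraries held 41, 36 and 62 counts (0 h) against 121, 111 and 115 (48 h). TC71 libraries held 102, 76 and 96 counts (0 h) against 144, 149 and 196 (48 h). The groups did not overlap in either line. Levels in EW8 rose from 1.92 ± 0.135 to 5.88 ± 0.484 CPM, a 3.08-fold change (log2 1.62, SE 0.14, adjusted p = 2.65e-12, edgeR). Those in TC71 rose from 3.83 ± 0.126 to 5.71 ± 0.310 CPM (log2 0.58, SE 0.12, adjusted p = 1.53e-04), which is under the fold of 2.

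At 0 h, PLAT was lower in EW8 than in TC71 by a log2 difference of -1.01 (SE 0.15, adjusted p = 2.98e-07), and at 48 h the levels were alike in size, between 5.56 and 6.43 CPM in EW8 and between 5.50 and 6.06 CPM in TC71. The difference of the changes between the lines was 1.05 (SE 0.19, adjusted p = 1.78e-05). Both line differences were close to the fold of 2. The first passed below it without EW8 0 h replicate 1 (-0.96), EW8 0 h replicate 3 (-0.99) or TC71 0 h replicate 3 (-0.98), and the second without EW8 0 h replicate 1 (0.99) or EW8 48 h replicate 1 (0.98).

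PLAUR encodes the GPI-anchored receptor that holds urokinase at the cell surface (chromosome 19, 43646095 to 43670547, − strand, 7 exons). Its levels stayed between 7.76 and 10.8 CPM in all libraries. In EW8 the levels were 9.15, 10.8 and 9.27 CPM at 0 h and 8.29, 8.97 and 8.08 CPM at 48 h. In TC71 they were 9.57, 9.86 and 8.85 CPM at 0 h and 8.86, 7.76 and 8.04 CPM at 48 h. The EW8 groups did not overlap, and the TC71 groups overlapped by a narrow margin. The log2 fold changes were -0.19 (SE 0.10, adjusted p = 0.0856, edgeR) and -0.20 (SE 0.09, adjusted p = 0.0892), and they differed between the lines by 0.01 (SE 0.14, adjusted p = 0.975). In EW8 the adjusted p passed below 0.05 in 4 alternative fits, where the change was between -0.26 and -0.22, none near a fold of 2.

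SERPINE2 encodes protease nexin-1, a secreted serpin that inhibits urokinase, tissue-type activator, plasmin and thrombin (chromosome 2, 223975045 to 224039318, − strand, 9 exons). Its counts in EW8 were 4064, 2914 and 5922 (0 h) against 11327, 12467 and 12778 (48 h). Those in TC71 were 3581, 2843 and 3401 (0 h) against 5656, 5830 and 7504 (48 h). With this depth the error was small. Levels rose from 175 ± 7.27 to 618 ± 13.2 CPM in EW8, which is 3.52-fold (log2 1.82, SE 0.04, adjusted p = 3.01e-28, edgeR). In TC71 they rose from 138 ± 3.91 to 222 ± 8.92 CPM, which is 1.61-fold (log2 0.69, SE 0.04, adjusted p = 2.04e-15). The change was larger in EW8 by 1.13 (SE 0.06, adjusted p = 3.83e-17), and the level at 0 h was higher in EW8 by 0.35 (SE 0.04, adjusted p = 4.77e-09). In EW8 and for the difference between the lines, its call held in every alternative fit and with each library left out.

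**Figure D2:**
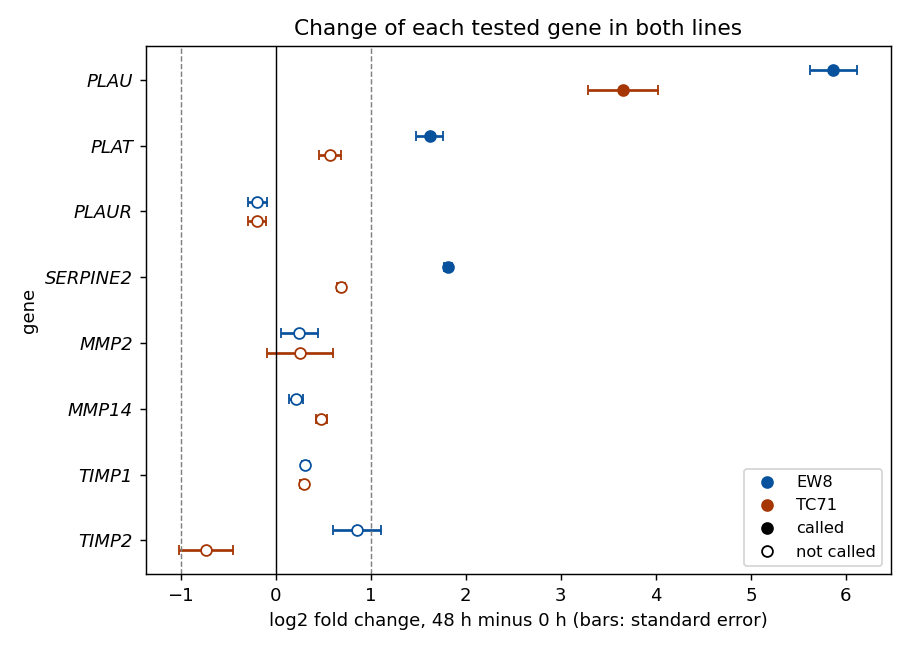
Log2 fold change, 48 h minus 0 h (horizontal axis), of the 8 genes tested in EW8 and TC71, with the standard error as bars; filled points were called and dashed lines mark a fold of 2. PLAU stood at 5.87 and 3.65, PLAUR at -0.19 and -0.20, and TIMP2 on opposite sides of 0.

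MMP1, the interstitial collagenase, lies on chromosome 11 (102789401 to 102798160, − strand, 10 exons). EW8 libraries held 2, 0 and 1 counts (0 h) against 3, 6 and 8 (48 h). The summed counts, 3 against 17, gave a 7.0-fold difference after scaling to library size, with an exact 95% interval of 2.02 to 37.3 for counting error only. TC71 libraries held 0, 0 and 0 counts (0 h) against 1, 2 and 1 (48 h), which is at or under the floor of 3 counts per library in both groups, so no fold is given. MMP1 shares 223 exonic bases with WTAPP1, a pseudogene transcribed from the opposite strand that has no row in the table used here.

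MMP2 encodes gelatinase A, which degrades type IV collagen and denatured collagen (chromosome 16, 55389700 to 55506691, + strand, 13 exons). Its counts in EW8 were 56, 29 and 59 (0 h) against 47, 42 and 50 (48 h). Those in TC71 were 13, 9 and 8 (0 h) against 17, 11 and 15 (48 h). The times overlapped in both lines, and the lines did not overlap with each other. Its log2 change was 0.25 (SE 0.19, adjusted p = 0.253, edgeR) in EW8 and 0.26 (SE 0.35, adjusted p = 0.571) in TC71, so a change of this size was not detectable at these counts. At 0 h, MMP2 was 4.65-fold higher in EW8 than in TC71 (1.97 ± 0.423 against 0.419 ± 0.0790 CPM; log2 2.22, SE 0.27, adjusted p = 5.32e-09). Its exons share 174 bases with ENSG00000279030 on the same strand, which is not in the table used here.

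MMP14 encodes the membrane-type metalloprotease MT1-MMP, the cell-surface activator of the MMP2 precursor (chromosome 14, 22836560 to 22849041, + strand, 10 exons). In EW8 its levels were 14.9, 18.2 and 16.1 CPM at 0 h and 19.1, 19.6 and 18.2 CPM at 48 h. In TC71 they were 36.8, 36.2 and 34.3 CPM at 0 h and 50.4, 48.9 and 50.3 CPM at 48 h. The TC71 groups lay well apart, whereas the highest EW8 library at 0 h met the lowest at 48 h. MMP14 rose in TC71 by 0.48 (SE 0.06, adjusted p = 2.71e-08, edgeR). The EW8 change was 0.22 (SE 0.07, adjusted p = 0.00849), and it did not pass without EW8 0 h replicate 1 (0.12, adjusted p = 0.17) or EW8 0 h replicate 3 (0.17, adjusted p = 0.0728).

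At an adjusted p under 0.05, MMP14 was the member whose change was smaller in EW8 than in TC71, by -0.26 (SE 0.09, adjusted p = 0.0199, edgeR). This difference did not pass with total counts alone as scaling (-0.19, adjusted p = 0.0987) or without EW8 48 h replicate 3 (-0.23, adjusted p = 0.0696) or TC71 0 h replicate 3 (-0.24, adjusted p = 0.051). At 0 h MMP14 was lower in EW8 than in TC71 by a log2 difference of -1.13 (SE 0.07, adjusted p = 9.19e-17), the reverse of the line difference of MMP2.

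TIMP1 and TIMP2 bind active metalloproteases and block them. TIMP1 lies on chromosome X (47582408 to 47586789, + strand, 6 exons) within the span of SYN1, a gene of the opposite strand that shares no exonic base with it and had 240 to 749 counts per library. TIMP1 was the member with the most counts in every library except EW8 48 h replicate 2, where SERPINE2 held 12467 against 12372. TIMP1 held 11437, 9039 and 16773 (0 h) against 12265, 12372 and 12817 (48 h) in EW8. TC71 libraries held 26135, 19892 and 22767 (0 h) against 30672, 30793 and 39717 (48 h). Scaled for depth the groups did not overlap in either line: levels rose from 510 ± 8.54 to 633 ± 16.8 CPM in EW8 and from 964 ± 18.8 to 1182 ± 41.1 CPM in TC71. The changes were small and of like size, 0.31 (SE 0.04, adjusted p = 1.45e-09, edgeR) and 0.30 (SE 0.03, adjusted p = 1.82e-08), with a difference of 0.02 (SE 0.05, adjusted p = 0.810). At 0 h TIMP1 was lower in EW8 by a log2 difference of -0.92 (SE 0.04, adjusted p = 9.83e-22), which passed the fold of 2 with total counts alone as scaling (-1.05).

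TIMP2, the adaptor between MMP14 and the MMP2 precursor, lies on chromosome 17 (78852977 to 78925387, − strand, 5 exons). Its levels in EW8 were 1.14, 1.09 and 0.641 CPM at 0 h and 1.38, 1.80 and 1.76 CPM at 48 h. In TC71 they were 1.27, 0.981 and 0.952 CPM at 0 h and 0.611, 0.858 and 0.495 CPM at 48 h. All EW8 libraries at 48 h lay above those at 0 h, and all TC71 libraries at 48 h lay below. These levels stood for 16 to 36 counts per library.

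TIMP2 had a log2 fold change of 0.86 (SE 0.26, adjusted p = 0.00348, edgeR) in EW8 and -0.73 (SE 0.28, adjusted p = 0.0325) in TC71, both under the fold of 2. The difference between the lines was 1.59 (SE 0.38, adjusted p = 6.77e-04), and it was called in every alternative fit and with each library left out, between 1.28 and 1.82. The change within each line was less firm. Without EW8 0 h replicate 3 the EW8 change was 0.53 (adjusted p = 0.0881). The TC71 change did not pass with DESeq2 (adjusted p = 0.0857), or without TC71 0 h replicate 1 (-0.58, adjusted p = 0.175), TC71 48 h replicate 1 (-0.70, adjusted p = 0.0735) or TC71 48 h replicate 3 (-0.55, adjusted p = 0.162). TIMP2 exons share 367 bases with ENSG00000267601 on the opposite strand and 224 bases with CEP295NL on the same strand, and neither is in the table used here.

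Between the lines, the change of PLAU, PLAT, SERPINE2 and TIMP2 was called larger in EW8, 4 of 8 genes against 7.28% of all genes tested. Under the stricter filter, which leaves out PLAU, it was 3 of 6 against 4.8% of all genes. The change of 0 members was called smaller, against 0.981% of all genes, with 1 (MMP14) at an unadjusted p below 0.05 and 0 by DESeq2. By adjusted p alone, these were 4 larger and 1 smaller, against 25.7% and 22.4% of all genes. At 0 h, MMP2 was called higher in EW8 (1 of 8, against 4.77% of all genes), and PLAT and MMP14 lower (2 of 8, against 11.9%). By adjusted p alone, 2 were higher (SERPINE2, MMP2) and 3 lower (PLAT, MMP14, TIMP1) in EW8, against 32.8% and 32.9% of all genes. The lines did not overlap for the same 5 genes, against 34% of all genes in the higher and 34.3% in the lower direction.

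To compare levels between genes, counts were divided by exon length and expressed as TPM, a length-scaled unit with the same sum over genes in every library. TIMP1 had the highest level in every group, 1285 ± 22.2 TPM in EW8 at 0 h and 2565 ± 82.4 TPM in TC71 at 0 h. SERPINE2 followed with 71.2 ± 2.70 and 59.2 ± 1.37 TPM, then MMP14 with 12.9 ± 1.35 and 29.8 ± 1.43 TPM and PLAUR with 7.95 ± 0.760 and 8.14 ± 0.545 TPM. The remaining genes were under 2 TPM at 0 h, with PLAU at 0.189 ± 0.0642 and 0.177 ± 0.138 TPM and MMP1 last. In TC71 the ranges of MMP2 and PLAU at 0 h overlapped, as did those of MMP2 and TIMP2 at 48 h, and the other neighbours in the order did not.

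At 48 h PLAU had moved from rank 8 to rank 4 of the 9 genes in EW8, at 13.9 ± 0.847 TPM, and from rank 8 to rank 6 in TC71, at 2.29 ± 0.558 TPM. In EW8 at 48 h it stood above the receptor PLAUR (7.89 ± 0.471 TPM), whereas in TC71 it stayed below it (7.62 ± 0.508 TPM). This order depends on the length used. With the longest annotated transcript in place of all exons, PLAUR stood at 16.0 TPM in EW8 at both times, above MMP14 (11.3 TPM at 0 h, 14.97 at 48 h) and above PLAU at 48 h (11.3 TPM). PLAT in TC71 at 0 h then stood at 3.12 TPM, above the 2 TPM given for the lower genes.

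TIMP1 made up 93.1% of the summed TPM of the 9 genes in EW8 at 0 h and 84.6% at 48 h. The share of SERPINE2 went from 5.16% to 13.3% over the same time. In TC71 the shares were steadier, 96.2% and 95.5% for TIMP1 and 2.22% and 2.89% for SERPINE2. The summed TPM of the 9 genes went from 1361 to 1403 (0 h) up to 2126 to 2209 (48 h) in EW8, and from 2568 to 2719 up to 3398 to 3769 in TC71, so inhibitor transcripts were most of the total in every library.

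**Figure D3:**
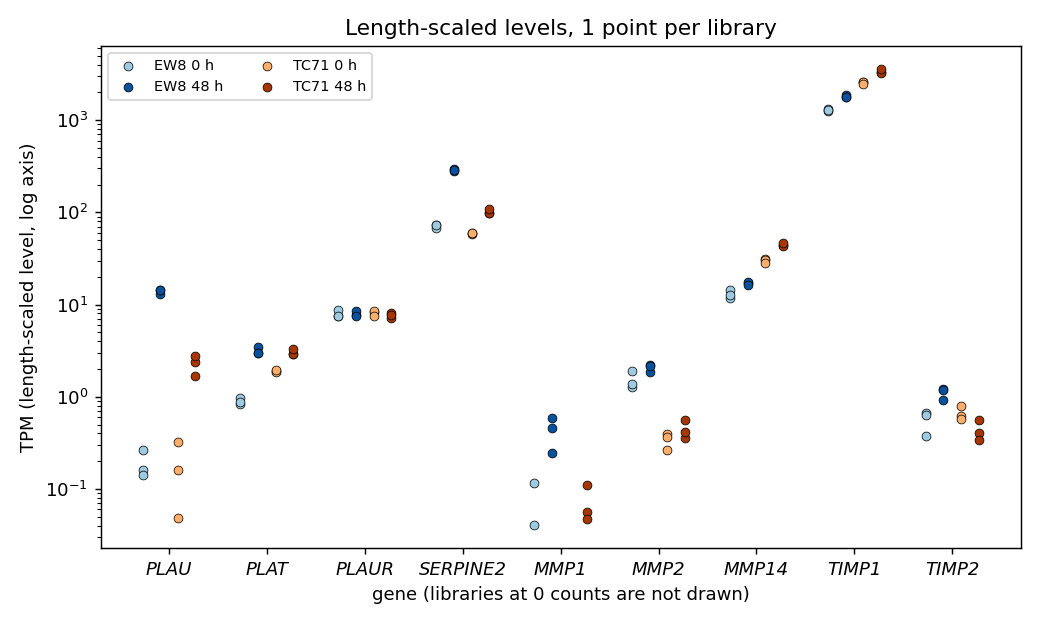
Length-scaled level of each gene in TPM (vertical axis, log scale), with 1 point per library in the 4 groups; libraries at 0 counts are not drawn. TIMP1 was at 1265 TPM or more in every library, and PLAU in EW8 moved from below TIMP2 at 0 h to between PLAUR and MMP14 at 48 h.

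Ratios between genes within a library need no scaling between libraries. In EW8, the PLAU to SERPINE2 ratio of counts (pseudocount 0.5) was -10.18, -10.19 and -9.63 on the log2 scale at 0 h, against -6.04, -5.95 and -5.91 at 48 h. In TC71 it was -11.22, -9.01 and -9.92 at 0 h and -7.44, -6.97 and -6.88 at 48 h. The activator thus gained on its inhibitor by 4.03 in EW8 and 2.95 in TC71, although the inhibitor also rose, and the groups did not overlap. PLAU likewise gained on PLAT, from a mean log2 ratio of -3.50 to 0.75 in EW8 and from -4.89 to -1.82 in TC71. The TC71 gain of 3.07 rested on PLAU counts of 1, 5 and 3 at 0 h and was 2.47 without TC71 0 h replicate 1 (2.47 to 3.62 over the libraries left out). Urokinase counts thus passed those of the tissue-type activator in EW8 but not in TC71. For each of these, the 2-sided exact permutation test gave p = 0.1, the smallest that 3 against 3 libraries allow (adjusted p = 0.133 over 12 ratios).

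The ratios to TIMP2 went in opposite directions in the lines. MMP14 to TIMP2 changed by -0.60 in EW8, where the groups overlapped (exact permutation p = 0.2), and by 1.20 in TC71, where they did not (exact permutation p = 0.1). MMP2 to TIMP2 changed by -0.54 (exact permutation p = 0.2) and 0.96 (exact permutation p = 0.1). TIMP1 to TIMP2 changed by -0.50 (exact permutation p = 0.2) and 1.01 (exact permutation p = 0.1). These 3 ratios share TIMP2 and are not separate evidence. MMP1 to TIMP1 was higher at 48 h than at 0 h in every EW8 library (exact permutation p = 0.1), but with 0 to 8 counts of MMP1 its size rests on the pseudocount. In TC71 this ratio was not read, as MMP1 had 0 counts in all libraries at 0 h.

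**Figure D4:**
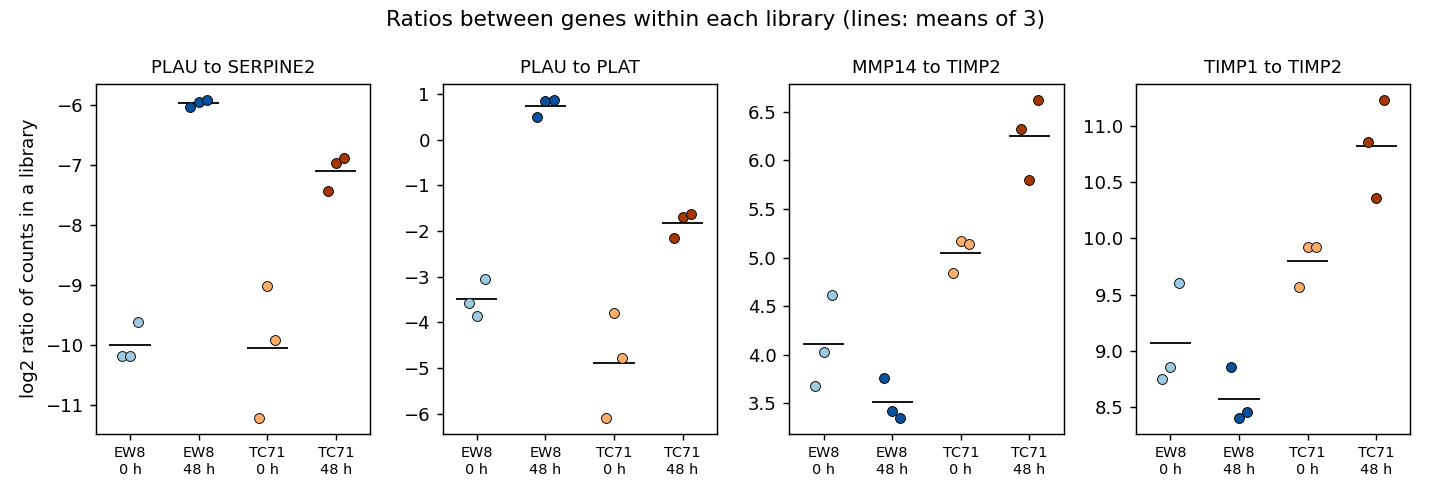
Log2 ratio of the counts of a pair of genes in each library (vertical axes), for 4 pairs and the 4 groups; lines are means of 3 libraries. PLAU gained on SERPINE2 and on PLAT in both lines, while MMP14 to TIMP2 and TIMP1 to TIMP2 were lower at 48 h in EW8 with overlapping groups and higher in TC71 without overlap.

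The genes whose log2 CPM followed each member most closely over the 12 libraries, among 13900 genes averaging at least 20 counts, are given as a description, since the libraries fall into 4 groups that set most of each correlation. PLAU was closest to KIF24 and ZNF184 (Pearson r = 0.991 for both), PLAT to CD36 (0.995) and GADD45A (0.994), and SERPINE2 to CCNT1 and DUSP16 (0.998 for both). MMP2 was closest to NHSL1 (0.986) and DTX4 (0.985), MMP14 to ECE1 (0.996) and PAX7 (0.995), and TIMP1 to CAMK2N1 (0.998) and CYRIA (0.997). PLAUR and TIMP2 had looser neighbours, LRP1 (0.947) and CAMKK1 (0.926) for PLAUR and ZFHX4 (0.915) and ROR1 (0.903) for TIMP2. LRP1 is the endocytic receptor that clears complexes of urokinase, its receptor and serpins.

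A wider list of 77 genes of the same system (plasminogen receptors, uptake receptors, serpins, other metalloproteases and their inhibitors) had 54 genes in the table and 47 tested. In EW8, 16 were called higher and 1 lower, which is 34.0% and 2.13% of the 47, against 13.9% and 3.35% of all genes tested. In TC71, 5 and 1 were called, which is 10.6% and 2.13%, against 3.26% and 0.854%. Their median log2 fold changes were 0.61 (EW8) and 0.19 (TC71), beside 0.03 and 0.00 over all genes tested. The 5 genes called higher in TC71 were all among the 16 of EW8, which is 100% of the first list and 31.3% of the second. Over all genes tested, 460 were called higher in both lines, which is 85.3% of those called in TC71 and 20.1% of those called in EW8. Of the 16, 8 averaged under 20 counts at 0 h, and of the 5, 3 did. By class in EW8, where 13.9% of all genes tested were called higher, 4 of 5 secreted metalloproteases were called higher, 2 of 4 membrane-bound ones, 5 of 11 ADAM and ADAMTS proteases, 3 of 9 serpins and other inhibitors of plasmin or its activators, 2 of 7 metalloprotease inhibitors and inducers, 0 of 5 uptake receptors and 0 of 6 plasminogen receptors and activating enzymes. These are counts of the genes that passed the filter on low counts. MMP10, MMP13, MMP19 and MMP25, named together after their values were seen, had at most 6 counts in any library at 0 h, and so passed it through the libraries at 48 h, where they were high in EW8. The class counts therefore support nothing about the class.

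Among the other metalloproteases, MMP9 (gelatinase B) had counts of 10, 4 and 13 (0 h) against 49, 49 and 38 (48 h) in EW8, and 13, 19 and 15 (0 h) against 52, 46 and 73 (48 h) in TC71. It was called higher in both lines, by 2.62 in EW8 and 1.59 in TC71. MMP10 (stromelysin-2) was called higher in EW8 (2, 2 and 4 counts, then 24, 39 and 44) and not in TC71 (2, 1 and 0, then 1, 9 and 5; adjusted p = 0.0598, edgeR). MMP13 (collagenase-3) was called higher in EW8 from 0, 1 and 6 to 15, 26 and 18 counts, and had 0 to 3 counts in every TC71 library. MMP3 (stromelysin-1) and SERPINB2, a serpin that inhibits both activators, had no row in the table used here. MMP25, a membrane-bound metalloprotease called higher in TC71 and named after its values were seen, held 1, 0 and 4 counts in that line (0 h) against 10, 9 and 7 (48 h).

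The ADAMTS proteases, secreted enzymes that cut proteoglycans and procollagens among other substrates, held the largest changes of the genes averaging at least 20 counts in the lower group. ADAMTS4, an aggrecanase, rose by 2.77 in EW8 and 1.95 in TC71, and ADAMTS6 by 2.73 and 1.24. In EW8, ADAMTS10 rose by 1.96 and ADAMTS1 by 1.47, as did CPB2 by 1.42, the carboxypeptidase that slows plasmin formation on fibrin. TIMP3, the matrix-bound inhibitor, rose by 1.67 in EW8 and 0.42 in TC71, while the membrane-anchored inhibitor RECK rose by 0.32 (adjusted p = 0.0201, edgeR) and 0.34 (adjusted p = 0.0195). The gene called lower in EW8 was LRP8, a receptor of the LDL receptor family, at -1.24. The gene called lower in TC71 was PCSK6, a proprotein convertase, at -1.03, named after its values were seen, with 24, 29 and 24 counts (0 h) against 12, 21 and 12 (48 h).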

How the data were processed

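RNA was sequenced from 12 libraries, 3 for each line and time. Per the labels and the study's methods, the authors prepared stranded mRNA libraries, sequenced them as paired-end 100 bp reads, checked them with FastQC and mapped them with STAR to hg38. They deposited raw counts per gene, not normalized. The counting tool, its strand setting, the annotation and the filter on low counts (the lowest sum over the libraries was 21) are not given in the sources used here.

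Counts were tested in R 4.3.3 with edgeR 4.0.16 (TMM factors, filterByExpr with a minimum count of 10 and a minimum total of 15, robust quasi-likelihood fit over the 4 groups, Benjamini-Hochberg adjustment over 16515 genes). Calls needed a fold over 2 besides an adjusted p under 0.05. DESeq2 1.42.0 was an alternative, as were other scalings, filters and thresholds, separate fits per line, a replicate block, and leaving out each of the 12 libraries. The authors named DESeq2. The test was checked on simulated counts. TPM used the union of exons in GENCODE release 44, and ratios the exact permutation test in scipy 1.17.1.

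The genes, the wider list and the marker lists were chosen with earlier results of these data known. Named genes were all 9 members, RRM1, 8 fixed genes of the wider list, up to 6 of its largest called changes per direction and line whose lower group averaged at least 20 counts, and the 2 closest neighbours of each member. Groups were taken from the labels. A gene of the wider list is counted in its totals and is not reported by name here.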

Additional observations from a re-analysis of the deposited data

Results flagged for a closer look

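For 5 of the 8 genes tested, the change at 48 h differed between the lines in the test of the difference itself (edgeR's quasi-likelihood test, 3 libraries per group, EW8 minus TC71 on the log2 scale). It was larger in EW8 for PLAU by 2.21 (adjusted p = 0.0117), for PLAT by 1.05 (adjusted p = 1.78e-05), for SERPINE2 by 1.13 (adjusted p = 3.83e-17) and for TIMP2 by 1.59 (adjusted p = 6.77e-04). The PLAU difference rested on few counts at 0 h and was 1.56 without TC71 0 h replicate 2 (adjusted p = 0.189, edgeR). For MMP14 the difference was -0.26 (adjusted p = 0.0199), with the larger rise in TC71. The MMP14 difference did not pass with total counts alone as scaling (-0.19, adjusted p = 0.0987, edgeR). By adjusted p alone, the change differed between the lines for 48.1% of all genes tested. Each line was a single clone, so line and clone cannot be told apart.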

How the results depend on the processing

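Without a fold threshold, 6 of 8 members and 29 of 47 wider-list genes were higher in EW8, against 37% of all genes tested. In EW8, 0 members and 9 wider-list genes were lower, against 31.6%. In TC71, 5 members and 19 wider-list genes were higher, against 22.9%, and 1 and 3 were lower, against 19.2%. For the difference between the lines, 4 members and 19 wider-list genes were then higher, against 25.7%, and 1 and 7 lower, against 22.4%. At 0 h, 2 members and 16 wider-list genes were higher in EW8, against 32.8%, and 3 and 15 lower, against 32.9%. Requiring at least 10 counts in every library removes PLAU and MMP2 and leaves 35 wider-list genes and 13210 genes in all. Then 8 wider-list genes were higher in EW8 (22.9%, against 9.11% of all genes). In TC71, 0 members and 2 wider-list genes were higher (0% and 5.71%, against 1.49%). For the difference, 4 wider-list genes were higher (11.4%, against 4.8%). At 0 h, 0 members were higher (against 2.94%) and 6 wider-list genes lower (17.1%, against 7.41%). With no filter, 2 wider-list genes were lower in EW8, and with total counts alone 0 in TC71. The share of all genes called is not given for these fits. Total counts alone moved the median of all genes by 0.13 in EW8 and by -0.13 between the lines at 0 h, and every member moved with it.

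With each library left out in turn, 3 to 4 members were higher for the difference between the lines, 1 to 2 members were lower at 0 h, 0 to 1 wider-list genes were lower in TC71, and 5 to 8 were higher for the difference, with the lowest value of that count without TC71 0 h replicate 2. The wider-list gene lower in TC71 (PCSK6) lost its call without TC71 0 h replicate 2, TC71 48 h replicate 1 or TC71 48 h replicate 3. The share of all genes called with a library left out is not given, so these counts are a description.

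The PLAU difference between the changes was not called at an adjusted p below 0.01 (0.0117, edgeR) or with a fold threshold of 1.5 inside the test (0.0908).

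Signs turned for values that were not called. The PLAUR difference between the changes was -0.0040 with DESeq2's size factors, -0.0049 with upper-quartile factors, -0.0067 with DESeq2, -0.0077 with no filter and -0.0129 with at least 10 counts in every library, and it ranged from -0.0501 to 0.0571 with a library left out. That of MMP2 was 0.0657 with total counts alone (-0.15 to 0.18 with a library left out), and that of TIMP1 -0.0035 with at least 10 counts in every library (-0.0172 to 0.0404). At 0 h, the PLAUR difference was -0.10 with total counts alone and -0.0454 with upper-quartile factors (-0.0213 to 0.0803 with a library left out), that of PLAU (0.37) ranged from -0.13 to 1.01 and that of TIMP2 from -0.41 to 0.0597. The cause was not tested.

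Replicate numbers did not pair the libraries: the deviations of the 6 same-numbered pairs of libraries (0 h with 48 h, 3 in each line) correlated at -0.14 to -0.01. With the replicate block no call of a member changed, and the PLAUR difference was -0.0070. The block left the TC71 change of TIMP2 at an adjusted p of 0.0516 (edgeR). Depth limits PLAU and MMP1 at 0 h, where each library held 0 to 7 counts.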
